A study of Mus musculus with 18 samples.

Results

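The comparison asked whether an inhibitor of the PI3K delta isoform changed RNA levels differently in antigen-stimulated CD8 T cells of the 2 genotypes. It used 12 of the 18 libraries of the series, 3 in each of 4 groups. For every gene the change with inhibitor in wild type (WT) was subtracted from the change with inhibitor in the libraries labelled knockout (KO). The result is called the contrast below. A negative contrast means that the inhibitor lowered the gene further, or raised it less, in the libraries labelled KO. Of 23414 genes in the table, the 10257 that reached 1, as a normalized value, in 3 or more of the 18 libraries were tested, and 5800 of these were protein-coding.

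The cells came from spleens of P14 mice, whose transgenic T cell receptor is specific for gp33, a peptide of lymphocytic choriomeningitis virus. The WT and KO animals both carried this receptor, and the knockout of TrIP, the protein encoded by Pik3ip1, was confined to CD8 cells. Whole spleen cells of all 4 groups were cultured for 24 h with gp33 at 100 ng/ml, recombinant IL-2 at 50 U/ml and recombinant IL-12 at 2 ng/ml, and the inhibitor groups also received IC87114 at 10 µM. CD8 T cells were sorted after culture, so that other spleen cells were exposed to the peptide and the inhibitor too. The labels used here give neither the Cre line, the age of the animals nor whether each library came from a separate animal, and p-values therefore measure only the spread between these libraries. The other 6 libraries, cultured without peptide, entered the filter on genes and the model's estimate of the spread. Results with these 6 left out of the model are given below, for genes that passed the same filter on all 18 libraries.

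PI3K is a lipid kinase that acts downstream of the T cell receptor, CD28 and cytokine receptors, and the delta isoform carries much of this signal in lymphocytes. Its product recruits AKT, which promotes growth and glucose use and keeps FOXO transcription factors out of the nucleus. TrIP is a transmembrane protein of T cells that binds and restrains PI3K. Antigen receptor signals also reach the ERK, NF-kB and calcium pathways, which induce AP-1, EGR and NR4A factors, cytokines and ligands of the TNF superfamily.

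Pik3ip1 (ENSMUSG00000034614) did not fall in the libraries labelled KO, and the genotype labels are therefore in doubt. Its normalized value was 0.863, 0.773 and 0.655 in the 3 WT libraries without inhibitor and 0.656, 0.616 and 0.624 in the 3 with it. It was 1.53, 1.67 and 1.63 in the libraries labelled KO without inhibitor and 2.51, 2.58 and 2.18 with it. All KO values lay above all WT values, and the table does not show which exons were read. The contrast for Pik3ip1 was 0.50 (SE 0.11, limma adjusted p = 0.00901), but it was not called when each library was scaled to a common median (0.38, adjusted p = 0.0674) or with 5 added before the log in place of 1 (0.20, adjusted p = 0.0924). KO below always means the libraries labelled KO, WT those labelled WT. If the labels were exchanged, every contrast would have the opposite sign.

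The CD8 T cell genes Cd8a, Cd8b1, Cd3e, Cd3d and Trac were present in all 12 libraries, with Cd8a between 96 and 162. Summed over genes, the back-transformed values came to 538883 to 552533 in the KO libraries without inhibitor and to 596370 to 630652 in the other 9. This total thus moved with genotype and inhibitor together, and its part in the results was not tested beyond the scaling alternatives. Replicate 2 of WT with inhibitor stood apart, with a mean correlation of 0.961 with its group against 0.978 for the next lowest library. Replicates 1 and 3 of that same group were at 0.978 and 0.979, and the remaining stimulated libraries at 0.993 to 0.996. WT with inhibitor was thus the loosest group, while the model used an estimate of the spread shared by all groups. Sequencing depth is unknown.

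The inhibitor changed more genes in KO than in WT, and most differences were larger falls in KO. In WT the inhibitor changed 868 genes (8.46% of the genes tested), lowering 528 (5.15%) and raising 340 (3.31%). In KO it changed 2917 (28.4%), lowering 1976 (19.3%) and raising 941 (9.17%). The contrast itself, which tests the difference, was called for 999 genes (9.74%), with 664 negative (6.47%) and 335 positive (3.27%). Of these, 273 had a contrast of at least 1 in size on the log2 scale, 200 negative and 73 positive. Unadjusted p was under 0.05 for 2607 genes. The median contrast over all genes tested was -0.034, with median changes of -0.046 in WT and -0.044 in KO.

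The split between negative and positive calls depended on the scaling. As deposited, 66.5% of the calls were negative. Scaling each library to a common median moved the median contrast to -0.157 and gave 1236 calls with 82% negative, and protein-coding genes rescaled alone gave a median of -0.163 and 1141 calls with 86.6% negative. With a minimum value of 5 the share was 53.8% of 660 calls. The 12 stimulated libraries alone gave 1397 calls, 941 negative and 456 positive. Leaving out replicate 2 of KO without inhibitor gave 569 calls, and leaving out replicate 1, 2 or 3 of KO with inhibitor gave 648, 605 and 647. Without replicate 2 or 3 of WT without inhibitor there were 630 and 587 calls, and without the library that stood apart 1477, of which 894 were negative and 583 positive.

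**Figure D1:**
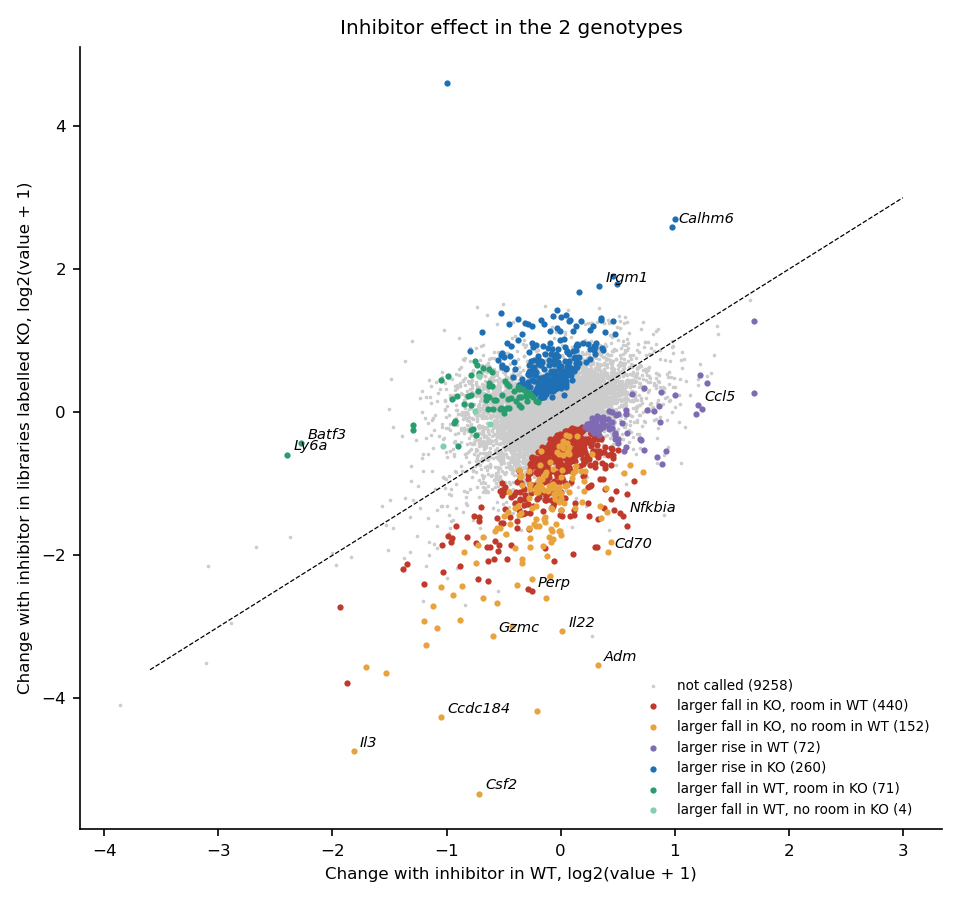
Change with inhibitor in WT (x axis) and in the libraries labelled KO (y axis), both in log2(value + 1), for the 10257 genes tested. Grey points were not called, colours give the classes of called genes with their numbers, and the dashed line marks equal change. Most called genes lie below the line near 0 on the x axis, with Csf2 lowest, while Batf3 and Ly6a lie far to the left and Calhm6 among the highest.

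In most genes with a negative contrast, the inhibitor lowered KO and left WT without a called change. This held for 496 of the 664 genes. In a further 80 both genotypes fell, and in 27 KO fell while WT rose. In 36 genes WT rose with no called change in KO, in 4 both rose, and in 21 neither change was called. Of the 335 genes with a positive contrast, 247 rose in KO with no called change in WT, 38 fell in WT with no called change in KO, 9 rose in KO and fell in WT, and in 30 neither change was called.

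The difference between genotypes was mostly seen without inhibitor. Of the 664 genes with a negative contrast, 585 were called higher in KO than in WT without inhibitor (all genes tested 14.9% higher and 9.09% lower). Of those 585, 530 were not called in either direction with inhibitor, 33 were still higher in KO and 22 were lower. The median difference, KO minus WT, was 0.64 on the log2 scale without inhibitor and -0.05 with it. Of the 335 genes with a positive contrast, 258 were lower in KO without inhibitor, of which 239 were not called with it, and the median difference went from -0.49 to 0.16. Over all genes tested, 2.01% were higher and 2.61% lower in KO with inhibitor. These differences and the contrast are made from the same 12 libraries, and a call that is missing with inhibitor does not show that the genotypes were equal.

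**Figure D2:**
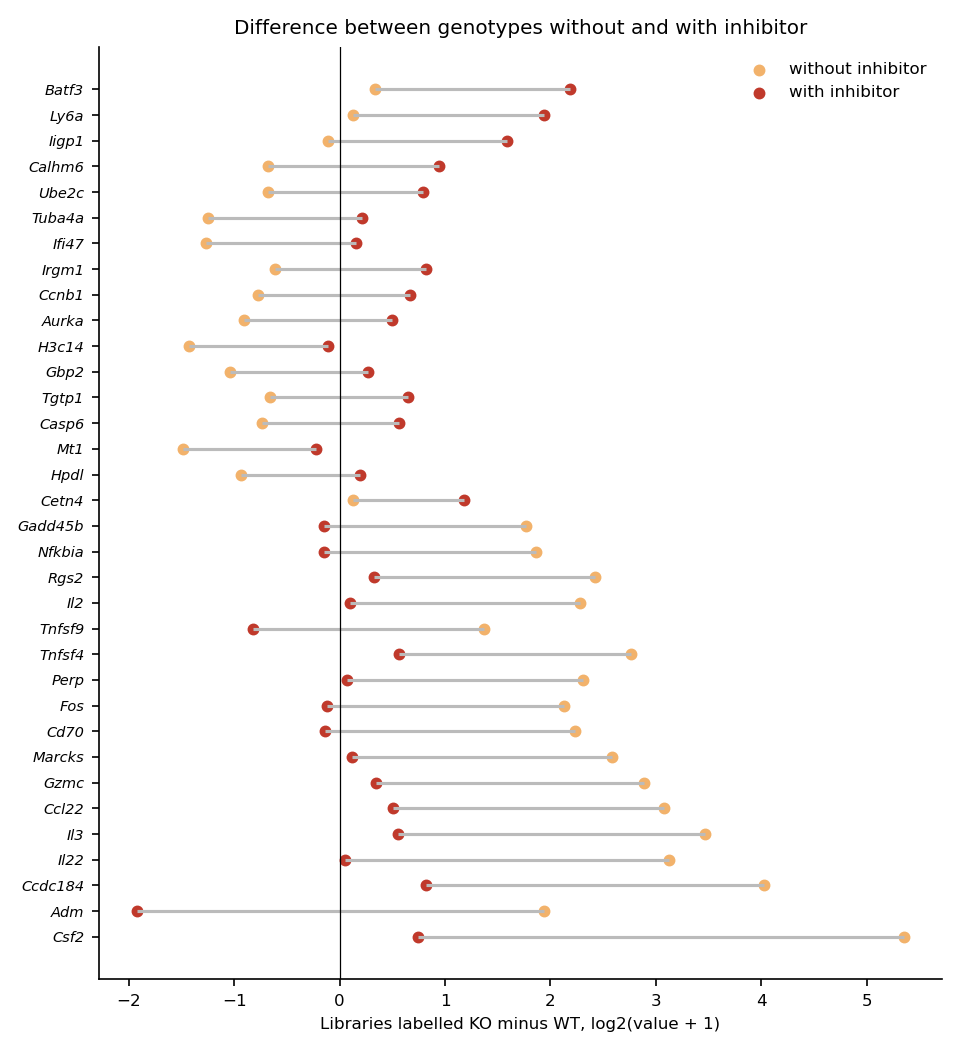
Difference between the libraries labelled KO and WT in log2(value + 1), without inhibitor (orange points) and with it (red points), for the genes with the largest contrasts. In the lower rows the orange points lie far to the right and the red ones mostly near 0. In Adm the difference went from 1.94 to -1.92, and in Batf3 and Ly6a it appeared with the inhibitor.

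A gene near 0 in WT cannot fall there as far as in KO, so the falls were separated by the room that WT had. A larger fall in KO was said to have room if the WT mean of log2(value + 1) without inhibitor was at least as large as the fall in KO. Of the negative calls, 440 were larger falls in KO with room in WT, 152 were larger falls without room, and 72 were larger rises in WT. The genes with room had a median change of -0.66 in KO and 0 in WT, from a median WT level of 1.74. Those without room had a median change of -1.26 in KO and -0.13 in WT, from a median WT level of 0.65. The mean WT value without inhibitor was under 1 in 113 of the 152 without room. It was also under 1 in 101 of the 440 with room, so part of that class lay near the floor too.

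The same genes were described on scales with a lower floor. They were chosen for a negative contrast in these 12 libraries, so the values are a description and no support. With 0.1 in place of 1 added before the log, which lowers the floor, the contrast was negative in 151 of the 152 genes without room and still called in 113 (74.3%), with a median of -1.76. It was called in 369 of the 440 with room (83.9%). The ratio of mean values fell further in KO for 148 of the 152. In 13 of them at least 1 WT library was listed at 0. Of 76 genes that reached a value of 1 in no libraries but those of KO without inhibitor, 58 were called negative and 43 had no room, and these passed the filter only through the group in which they were high.

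The boundary itself was crossed by small amounts. Just without room were Nr4a1, whose fall of 1.39 in KO exceeded its WT level by 0.016, Tcp11l2 and Rap2b. Just with room were Dyrk3, Rcsd1 and Hpcal1, with margins of 0.027 to 0.048. Asking for a margin of 1 left 207 genes with room and 385 without. Among positive calls, 71 were larger falls in WT with room in KO, 4 were larger falls in WT without room, and 260 were larger rises in KO.

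**Figure D3:**
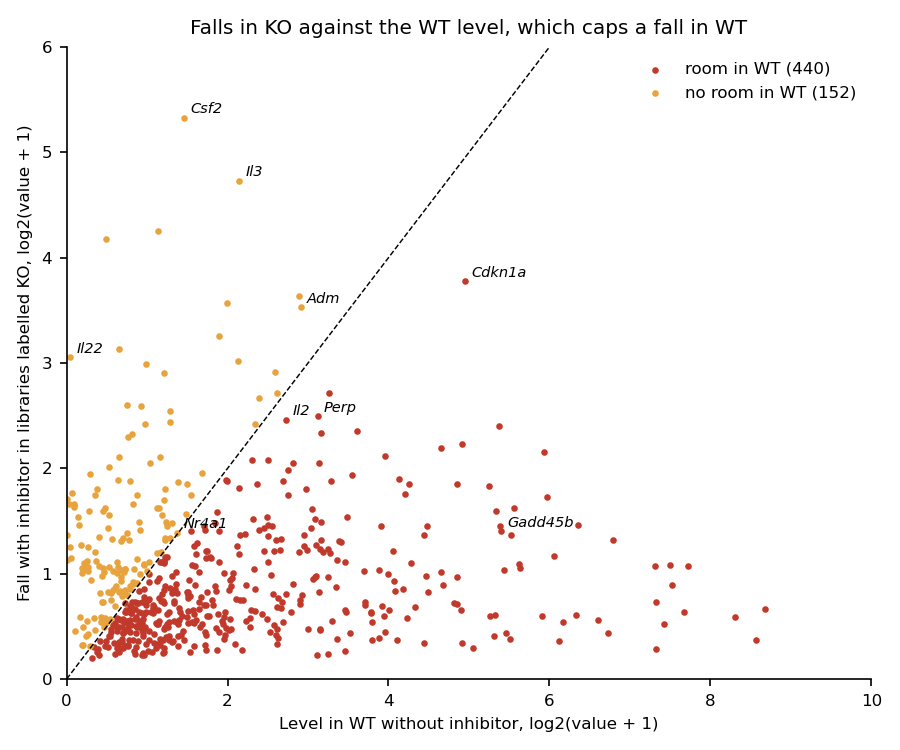
Size of the fall with inhibitor in the libraries labelled KO (y axis) against the WT level without inhibitor (x axis), both in log2(value + 1), for the 592 larger falls in KO. The dashed line marks a fall equal to the WT level. The 440 genes on or below it had room in WT, such as Il2, Perp, Cdkn1a and Gadd45b, and the 152 above it did not, such as Csf2, Il3 and Il22.

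Counts of list members below are read against the 6.47% negative and 3.27% positive calls among all genes tested. Calls differed by gene type. Of the 5800 protein-coding genes tested, 574 were called negative and 142 positive, while 64 processed pseudogenes were negative and 185 positive. All genes together thus give a lower share of negative calls than protein-coding genes do. The lists were chosen with earlier results of these data known, so a share above these is only a description. Secreted cytokines included the most negative contrast among named genes. Of 11 cytokine genes tested, 5 were called negative and 0 positive (median contrast -0.28, against -0.034 for all genes). Csf2 (ENSMUSG00000018916) encodes GM-CSF, a growth factor for myeloid cells. Its normalized value was 98, 162 and 86.6 in KO without inhibitor and 3.41, 1.67 and 0.842 with it. In WT it was 0.856, 1.93 and 2.81 without and 0.639, 1.15 and 0.331 with inhibitor. The 3 KO libraries without inhibitor lay above all others, and WT with and without inhibitor overlapped. The mean fell 58.4-fold in KO, and the contrast was -4.62 (SE 0.51, adjusted p = 5.73e-05). Csf2 had no room in WT, but its contrast was also called with 0.1 added before the log (-4.67, adjusted p = 0.0151).

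Il3, a growth factor for blood precursors and mast cells, fell in both genotypes. It went from 42.4, 56.2 and 45.9 to 0.812, 1.62 and 0.305 in KO and from 2.99, 3.96 and 3.35 to 0.15, 0.392 and 0.232 in WT. The mean fell 52.7-fold in KO and 13.3-fold in WT, with a contrast of -2.92 (SE 0.26, adjusted p = 8.62e-06). Il2, the T cell growth factor, had room in WT. It went from 27.9, 36.1 and 30.2 to 4.58, 4.32 and 5.74 in KO, while the WT libraries held 5.61, 5.11 and 6.21 without and 4.09, 6.35 and 3.33 with inhibitor. The KO values with inhibitor lay within the range of the WT values, and the contrast was -2.18 (SE 0.25, adjusted p = 8.92e-05).

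Il22, which acts on epithelia, was 6.14, 11.2 and 7.36 in KO without inhibitor and at most 0.22 in every other stimulated library, with a contrast of -3.07 (SE 0.20, adjusted p = 5.42e-07). Its near copy in the genome makes the division of its reads uncertain. Ltb, a subunit of lymphotoxin, had a contrast of -0.57. Ifng, the main effector cytokine, was not called: it went from 1090, 725 and 872 to 66.3, 43.5 and 45.1 in KO and from 55.9, 70.2 and 49 to 4.82, 2.97 and 1.83 in WT. Its mean fell 17.4-fold in KO and 18.2-fold in WT, and the contrast was -0.23 with an SE of 1.07, estimated from all 18 libraries. The remaining cytokines, Tnf, Lta, Lif, Osm and Il16, had contrasts between -0.28 and 0.79 that were not called.

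Chemokine and cytotoxic genes were called less evenly. Of 7 chemokine genes, 2 were negative and 0 positive (median -1.53). Ccl22, a ligand of CCR4, went from 11.2, 18.2 and 19 to 0.646, 1.96 and 0.901 in KO, while WT ranged from 0.0596 to 3.64 without inhibitor. Its contrast was -2.57, but it was not called with 0.1 added before the log (-3.15, adjusted p = 0.215). Ccl5, a chemokine of effector T cells, was called as a larger rise in WT, from 3.48, 4.91 and 1.91 to 8.56, 11.8 and 6.74, at a contrast of -1.10. Leaving out any of 9 single libraries ended that call. The macrophage inflammatory genes Ccl3 (-2.19, SE 0.75) and Ccl4 (-1.53, SE 0.96) were not called.

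Of 11 cytotoxic genes, 2 were negative and 0 positive (median -0.17). With the 12 stimulated libraries alone, 4 were negative and 1 was positive. Gzmc, a granzyme, went from 11.1, 8.77 and 12.1 to 0.396, 0.207 and 0.361 in KO and from 0.399, 0.642 and 0.667 to 0.0154, 0.0624 and 0.0259 in WT. The mean fell 33.1-fold in KO and 16.5-fold in WT, and the contrast of -2.54 was not called with 0.1 added (-2.39, adjusted p = 0.129). Serpinb6b, a protease inhibitor, had a contrast of -0.81 that was lost under 13 of 22 alternatives, 10 of them leaving out a single library. Neither Gzmc nor Serpinb6b was called with 0.1 added. Gzmb, the main granzyme, went from 2600, 2510 and 2780 to 464, 705 and 628 in KO and from 2570, 2740 and 2640 to 347, 290 and 296 in WT, and its contrast of 0.94 (SE 0.70) was not called. That SE rests on all 18 libraries, and a missing call does not show equal changes. Prf1, which encodes perforin, fell by 2.13 in KO and 1.97 in WT on the log2 scale, with a contrast of -0.17 (SE 0.21) that was not called.

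Ligands and receptors of the TNF superfamily give costimulatory and death signals. Of 14 tested, 9 were negative and 0 positive (median -0.66), 3 with room in WT and 6 without. Tnfsf9, the ligand of 4-1BB, went from 20.9, 28 and 24.7 to 6.74, 5.79 and 5.25 in KO and was 8.64, 8.45 and 9.28 without and 13.7, 10.2 and 10 with inhibitor in WT. The KO values moved from above all WT values to below them, with a contrast of -2.20 (SE 0.42, adjusted p = 0.00455). Cd70, the ligand of CD27, went from 3.94, 5.21 and 5.15 to 0.62, 0.308 and 0.546 in KO, and from 0.328, 0.246 and 0.111 to 0.653, 0.584 and 0.673 in WT. It fell in KO and rose in WT, with a contrast of -2.37 (SE 0.14, adjusted p = 2.91e-07). Tnfsf4, the ligand of OX40, had a contrast of -2.20, and Tnfsf11, the ligand of RANK, -1.89. Among receptors, Tnfrsf10b, Tnfrsf26, Tnfrsf25, Tnfrsf1a and Tnfrsf18 were called at -1.07 to -0.47. The receptors Tnfrsf4, Tnfrsf9 and Cd27 were not called, at -0.03, -0.43 and -0.10.

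Antigen receptor signals induce transcription factors of the NR4A, EGR and AP-1 families. Of 16 such genes, 10 were negative and 0 positive (median -0.72), although 5 were called with 0.1 added. Nr4a1, an orphan nuclear receptor used as a marker of receptor signalling, went from 5.06, 5.42 and 4.44 to 1.39, 1.21 and 1.23 in KO and from 1.75, 1.62 and 1.42 to 2.54, 2.33 and 2.46 in WT. The inhibitor thus lowered it in KO and raised it in WT (contrast -1.80, SE 0.16, adjusted p = 6.57e-06). Nr4a2 did the same, with a fall of 3.75-fold in KO and a contrast of -1.84 (SE 0.10). Fos, a subunit of AP-1, went from 9.29, 8.02 and 10.5 to 2.18, 1.72 and 1.87 in KO and was 1.89, 1.38 and 0.837 without and 2.89, 1.66 and 2.08 with inhibitor in WT. Its contrast was -2.25, and with 0.1 added it was -2.89 and not called (adjusted p = 0.0538). Fosl1, another AP-1 subunit, fell in both genotypes, 7.11-fold in KO and 3.67-fold in WT. Egr3 and Junb were called at -1.27 and Egr1 at -1.26, although the inhibitor effect on Egr1 was called in neither genotype. Myc, a driver of growth, was not called (0.10).

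Feedback inhibitors of ERK signalling gave 5 negative and 0 positive calls among 7 (median -0.99), and 2 with 0.1 added. Dusp6, a phosphatase that inactivates ERK, was 3.34, 3.27 and 2.98 without and 10.3, 7.17 and 9.46 with inhibitor in WT, and 6.2, 8.69 and 7.2 without and 8.6, 7.56 and 6.7 with it in KO. It rose in WT and was not called in KO (contrast -1.19, SE 0.24). The dual-specificity phosphatases Dusp5 (-1.01), Dusp1 (-0.99) and Dusp4 (-0.58) and the antagonist Spry1 (-1.13) were larger falls in KO. Dusp4, Dusp5 and Spry1 were not called with 0.1 added.

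NF-kB genes gave 9 negative and 0 positive calls among 12 (median -0.90), 8 of the 9 with room in WT. Nfkbia encodes IkB alpha, which holds NF-kB in the cytoplasm and is itself induced by it. It was 131, 158 and 166 without and 63.4, 52.3 and 48.7 with inhibitor in KO, against 40.5, 39.1 and 43.4 without and 49.9, 81.6 and 53.9 with inhibitor in WT. The groups did not overlap without inhibitor and overlapped with it, and the contrast was -2.0 (SE 0.24, adjusted p = 0.00011). Tnfaip3, the ubiquitin-editing inhibitor A20, fell 8.39-fold in KO (contrast -1.61), and Traf1, an adaptor of TNF receptors, 5.52-fold in KO and 1.77-fold in WT (-1.44). The subunits Rel (-1.04), Rela (-0.71) and Nfkb2 (-0.71) were called, and Nfkb1 was not (-0.05). Gadd45b, a stress-induced gene, went from 143, 138 and 151 to 60.5, 50.2 and 51 in KO and from 44.1, 40.9 and 39.1 to 58.8, 64.7 and 56.3 in WT, with a contrast of -1.93.

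The Nfkbia promoter is shown because the gene had the most negative contrast among the NF-kB genes and its window holds a match to GGG, any 2 bases and TTTCC, letters that resemble an NF-kB site. The window runs from 250 bases before to 50 bases after the RefSeq start of the gene in GRCm38.p6, read 5′ to 3′ along the gene's strand, with the match in capitals. Both strands were searched. Such a match was present in 1.89% of 27025 genes with a promoter window and in 4 of 11 NF-kB genes (36.4%). It was present in 4.52% of the larger falls in KO with room and 4.95% of those without.
Nfkbia (chr12:55492598-55492897, minus strand): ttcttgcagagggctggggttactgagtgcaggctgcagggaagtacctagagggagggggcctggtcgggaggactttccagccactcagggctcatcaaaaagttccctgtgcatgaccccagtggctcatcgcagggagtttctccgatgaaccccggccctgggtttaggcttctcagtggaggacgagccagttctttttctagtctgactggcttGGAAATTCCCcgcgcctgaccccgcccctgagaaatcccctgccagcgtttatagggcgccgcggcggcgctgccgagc

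Targets of p53, the factor that arrests or kills stressed cells, included many called genes. Of 19 tested, 15 were negative and 0 positive (median contrast -1.35), 6 with room in WT and 9 without. The inhibitor lowered 17 of them in KO and 10 in WT. Cdkn1a encodes p21, an inhibitor of the cell cycle. It went from 159, 202 and 197 to 16.4, 12.2 and 9.85 in KO and from 32.9, 28 and 29.5 to 7.91, 7.13 and 7.42 in WT. The mean fell 14.5-fold in KO and 4.02-fold in WT, from a WT level that left room (contrast -1.91, SE 0.21, adjusted p = 6.35e-05). Perp, a membrane protein of apoptosis, went from 33.2, 48.2 and 46.5 to 8.85, 5.48 and 5.93 in KO and was 8.19, 7.69 and 7.21 without and 6.47, 5.43 and 7.04 with inhibitor in WT. It had the most negative contrast among genes with room (-2.24, SE 0.22, adjusted p = 2.01e-05).

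Mdm2, the ubiquitin ligase that degrades p53, went from 21.7, 33.8 and 27.1 to 3.81, 3.22 and 3.27 in KO and from 5.13, 4.18 and 3.58 to 2.89, 2.08 and 2.79 in WT (contrast -2.11, SE 0.21). Phlda3, which restrains AKT, fell 15.7-fold in KO and 4.11-fold in WT (-2.11). Pmaip1, the BH3-only death protein Noxa, was 42.8, 48.1 and 50.4 without and 11.1, 10.6 and 10.1 with inhibitor in KO, and 6.35, 5.85 and 5.86 without and 4.43, 3.19 and 4.67 with it in WT. It remained higher in KO with inhibitor (difference 1.20). Plk2, a stress-induced kinase, was called at -2.02 and not with 0.1 added (-1.86, adjusted p = 0.0656). The 4 p53 targets not called were Bax (-0.93), Aen (-0.28), Ddb2 (-0.02) and Tigar (0.31).

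In the BCL2 family, 6 of 10 genes were negative and 0 positive (median -0.92), and they included survival as well as death genes. Bcl2l1, which encodes BCL-XL, was called at -0.76, the death gene Bbc3 at -0.91, and Pmaip1 as above. The survival genes Bcl2a1a, Bcl2a1b and Bcl2a1d were at -1.10, -1.17 and -1.23, although reads of these near copies may have been divided among them.

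In the amino acid and ATF4 list the negative calls were stress-induced genes, and most genes of transport and synthesis were not called. Of 21 genes, 6 were negative and 1 positive (median -0.18). Ddit3, a death-promoting factor of the stress response, went from 8.02, 7.96 and 9.22 to 2.28, 2.34 and 2.65 in KO and was 2.28, 2.69 and 1.9 without and 2.3, 2.47 and 2.18 with inhibitor in WT. The KO values came into the WT range (contrast -1.47, SE 0.13, adjusted p = 6.57e-06). Chac1, which degrades glutathione, was at -1.21, Nupr1 at -1.48, Ppp1r15a at -1.22, Trib3 at -0.94 and Sesn2, also a p53 target, at -1.35. The serine synthesis gene Psat1 was the positive call, at 0.58.

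**Figure D4:**
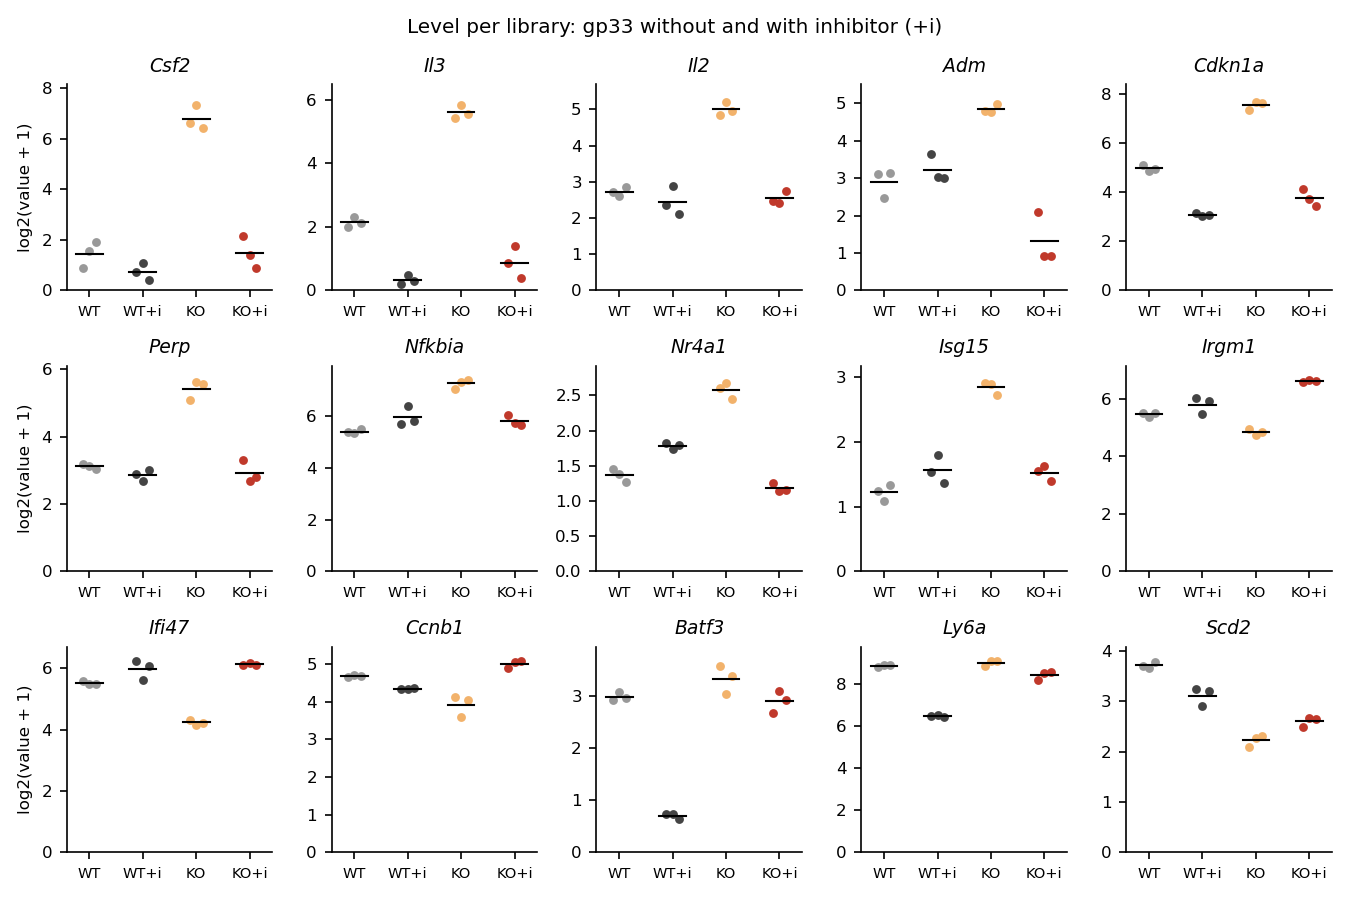
Level in log2(value + 1) in each of the 12 stimulated libraries for 15 genes, as points, with the group mean as a bar; WT and KO without and with inhibitor (+i). The genes of the first row and Perp, Nfkbia, Nr4a1 and Isg15 were highest in KO without inhibitor; Irgm1, Ifi47 and Ccnb1 were lowest in that group; Batf3 and Ly6a were lowest in WT with inhibitor.

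Interferon-induced genes were called in both directions. Of 15 genes of the type I interferon response, 6 were negative and 0 positive (median -0.35), while of 19 genes of the interferon gamma response, 1 was negative and 8 positive (median 0.53). Most members of both lists were not called in this fit, and the difference between the lists was not tested. With the 12 stimulated libraries alone, 11 type I genes were negative and 0 positive. Of the interferon gamma genes, 1 was then negative and 11 were positive. Isg15, a ubiquitin-like protein, was 6.51, 6.44 and 5.58 without and 1.93, 2.08 and 1.63 with inhibitor in KO, and 1.37, 1.12 and 1.51 without and 1.91, 2.46 and 1.58 with it in WT. KO lay above WT without inhibitor and overlapped it with inhibitor (contrast -1.67, SE 0.17, adjusted p = 3.03e-05). Irf7, an amplifier of the type I response, was at -1.73 (SE 0.29), and Usp18, which removes ISG15 from proteins, at -1.02. Ifit1, an RNA-binding antiviral protein, was 2.87, 3.28 and 2.54 without and 0.959, 0.779 and 0.927 with inhibitor in KO and between 0.579 and 0.746 in WT (contrast -1.03, SE 0.28, adjusted p = 0.0343).

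The 8 interferon gamma genes with a positive contrast were larger rises in KO. Irgm1, an immunity-related GTPase, went from 30, 25.8 and 27.6 to 93.7, 99.3 and 96.8 in KO and was 44.2, 40.5 and 44.1 without and 63.9, 42.9 and 58.8 with inhibitor in WT. KO was the lowest group without inhibitor and the highest with it (contrast 1.43, SE 0.26, adjusted p = 0.00348). Ifi47, a GTPase of the same family, went from 19.1, 16.8 and 17.7 to 68.6, 71.1 and 68.4 in KO (contrast 1.44, SE 0.20, adjusted p = 0.00045). Gbp2, a guanylate-binding protein, went from 2.5, 3.04 and 3.04 to 12.4, 12.9 and 11.9 in KO and from 7.47, 6.65 and 6.66 to 9.26, 11.4 and 9.88 in WT, and rose in both (contrast 1.31, SE 0.20). Iigp1 (1.71), Igtp (1.08), Tgtp1 (1.31), Tgtp2 (1.20) and the transcription factor Irf1 (0.54) were the other positive calls, Tgtp1 and Tgtp2 being near copies. Leaving out any of 9 single libraries ended the call of Iigp1. Cd274, which encodes the inhibitory ligand PD-L1, was the negative call at -0.95. Ifng itself, as given above, was lower with inhibitor in both genotypes.

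The promoters of 4 of these genes are shown because Isg15 and Ifit1 had negative and Irgm1 and Gbp2 positive contrasts, while all 4 windows hold the same letters. These are GAAA, any 2 bases and GAAA, which resemble the interferon-stimulated response element. The windows are from RefSeq GRCm38.p6, 250 bases before to 50 after the start, 5′ to 3′ on the gene's strand. Capitals mark this motif and TGANTCA, an AP-1-like motif, on either strand, and matches of the former overlap in Isg15 and Irgm1. The interferon motif was found in 3.99% of all genes with a window, in 8 of 12 type I genes (66.7%) and in 9 of 15 interferon gamma genes (60%). TGANTCA was found in 8.97% of all genes with a window and 5.59% of those tested, and here in Irgm1 and Gbp2. Across the lists it was in 3 of 12 type I genes (25%) and 2 of 15 interferon gamma genes (13.3%). The 2 windows shown with it therefore do not represent their list.
Isg15 (chr4:156200769-156201068, minus strand): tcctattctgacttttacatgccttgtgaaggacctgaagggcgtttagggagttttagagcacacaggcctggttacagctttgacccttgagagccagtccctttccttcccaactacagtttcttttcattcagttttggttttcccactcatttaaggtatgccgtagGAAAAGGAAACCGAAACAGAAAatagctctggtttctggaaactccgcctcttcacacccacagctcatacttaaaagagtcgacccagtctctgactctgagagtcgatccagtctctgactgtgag
Ifit1 (chr19:34640639-34640938, plus strand): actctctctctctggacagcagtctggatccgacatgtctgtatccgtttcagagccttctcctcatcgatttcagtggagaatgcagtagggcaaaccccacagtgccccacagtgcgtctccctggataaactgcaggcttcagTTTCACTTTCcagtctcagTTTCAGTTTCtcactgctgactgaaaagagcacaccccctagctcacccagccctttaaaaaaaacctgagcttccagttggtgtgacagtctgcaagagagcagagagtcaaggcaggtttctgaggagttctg
Irgm1 (chr11:48871371-48871670, minus strand): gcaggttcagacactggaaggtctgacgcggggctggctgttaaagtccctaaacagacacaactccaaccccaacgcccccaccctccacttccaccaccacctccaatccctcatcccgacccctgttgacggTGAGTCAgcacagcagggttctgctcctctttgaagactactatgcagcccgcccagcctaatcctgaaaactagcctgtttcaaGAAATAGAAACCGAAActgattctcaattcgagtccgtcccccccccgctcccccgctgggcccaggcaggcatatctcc
Gbp2 (chr3:142620413-142620712, plus strand): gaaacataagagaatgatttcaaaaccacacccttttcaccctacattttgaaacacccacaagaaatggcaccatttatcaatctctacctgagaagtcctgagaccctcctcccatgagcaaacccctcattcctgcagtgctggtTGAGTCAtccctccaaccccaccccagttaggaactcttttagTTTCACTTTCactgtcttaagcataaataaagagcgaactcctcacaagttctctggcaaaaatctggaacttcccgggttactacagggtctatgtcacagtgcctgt

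A smaller set fell further in WT than in KO. Batf3, an AP-1 family factor of T cells and dendritic cells, went from 6.51, 7.42 and 6.76 to 0.663, 0.656 and 0.564 in WT and from 10.9, 7.16 and 9.33 to 5.39, 7.5 and 6.57 in KO. The mean fell 11-fold in WT and 1.41-fold in KO (contrast 1.85, SE 0.17, adjusted p = 1.11e-05). Ly6a, which encodes the surface protein Sca-1, went from 451, 482 and 476 to 88.6, 91.7 and 84.7 in WT and from 461, 546 and 544 to 291, 367 and 375 in KO. Its groups overlapped without inhibitor and stood apart with it (contrast 1.81, SE 0.15, adjusted p = 4.98e-06). Tbx21, which encodes the effector regulator T-bet, fell 2.84-fold in WT and was not called in KO (1.16-fold; contrast 0.78, SE 0.15). Il12rb2, a chain of the IL-12 receptor, fell in both, 2.68-fold in WT and 1.44-fold in KO; its contrast of 0.42 was not called under median scaling (0.30, adjusted p = 0.131) or with 0.1 added (0.81, adjusted p = 0.0682).

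The other effector and memory factors were divided. Of 16, 2 were negative and 3 positive (median -0.12). With the 12 stimulated libraries alone, 6 were negative and 3 positive, and with median scaling 5 were negative and 2 positive. Id2, an inhibitor of E proteins, went from 95.8, 124 and 106 to 46.2, 37.8 and 40.5 in KO and was 44, 44.2 and 46.9 without and 49.9, 39 and 47.4 with inhibitor in WT (contrast -1.37, SE 0.17). Bhlhe40, a repressor active in effector cells, was at -1.35, Batf3 and Tbx21 were positive as given, and Irf4, induced by receptor signal strength, was at 0.75. Eomes, Tcf7 and Lef1 were not called in the reported fit (-0.42, -0.46 and -0.22).

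Every call among lipid synthesis genes was positive, although most members were not called. Of 21 cholesterol genes, 6 were positive and 0 negative (median 0.36), and of 7 fatty acid genes 3 were positive and 0 negative (median 0.30). With replicate 2 of WT with inhibitor left out, 10 cholesterol genes were called, and with median scaling 3. Msmo1, a sterol oxidase, went from 12.5, 10.4 and 11.9 to 24.7, 27.2 and 26.9 in KO, while WT was 25.4, 24.6 and 23.9 without and 31, 34.3 and 32.3 with inhibitor. KO without inhibitor was the lowest group (contrast 0.73, SE 0.18, adjusted p = 0.0202), and leaving out replicate 2 of KO without inhibitor, or replicate 2 or 3 of KO with it, ended the call. Fdps (1.02), Cyp51 (0.64), Acat2 (0.50) and Sc5d (0.48) were the other larger rises in KO, and Insig1, a sterol-regulated brake, was a larger fall in WT (0.85). Leaving out any of 5 single libraries ended the call of Insig1, and likewise that of Cyp51. Scd2, a desaturase, went from 12.1, 11.7 and 12.7 to 8.44, 6.52 and 8.18 in WT and from 3.28, 3.82 and 3.99 to 4.64, 5.34 and 5.26 in KO, opposite directions that were both called (contrast 0.97, SE 0.19). No fatty acid gene was called with 0.1 added before the log.

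In the cell cycle list 3 mitotic genes rose in KO, and few other members were called. Of 31 genes, 1 was negative and 3 positive (median 0.10, and -0.03 with median scaling). Ccnb1, the mitotic cyclin B1, went from 16.6, 11 and 15.5 to 28.8, 32.2 and 32.9 in KO and was 24.4, 25.4 and 24.5 without and 19.1, 19.2 and 19.6 with inhibitor in WT (contrast 1.43, SE 0.30, adjusted p = 0.00763). Plk1 (1.23) and Aurka (1.42), mitotic kinases, were the other 2, and Ccne2, a cyclin of S phase entry, was the negative call (-0.75). The replication helicase genes Mcm2 to Mcm7 had contrasts from -0.35 to 0.03, none called. With 0.1 added 1 gene of the list was positive, and without replicate 2 of WT with inhibitor 6 were. Ube2c, a mitotic ubiquitin enzyme outside the list, was at 1.47, a call that leaving out any of 9 single libraries ended.

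Among PI3K pathway genes, 2 of 9 were negative and 0 positive (median 0.04, and -0.08 with median scaling). Eif4ebp1, the translation repressor 4E-BP1, went from 17.5, 17.1 and 17.6 to 7.52, 7.79 and 7.48 in KO and from 18.3, 18.5 and 18.7 to 12.3, 14.2 and 11.1 in WT. The genotypes were not called different without inhibitor (-0.08), and KO was lower with it (contrast -0.57, SE 0.13, adjusted p = 0.0113). Pik3cd, which encodes the catalytic subunit that IC87114 targets, was not called (0.07).

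FOXO target genes, which PI3K signalling is known to repress, gave 5 negative and 1 positive call among 14 (median -0.61). Ccr7, the lymph node homing receptor, went from 317, 461 and 362 to 194, 175 and 167 in KO and was 176, 148 and 151 without and 238, 164 and 228 with inhibitor in WT (contrast -1.46, SE 0.21, adjusted p = 0.000452). Txnip, which limits glucose uptake, fell in KO from 10.9, 10.3 and 10.5 to 7.12, 6.29 and 7 and rose in WT from 4.99, 4.81 and 4.16 to 6.42, 6.51 and 5.58 (contrast -0.92, SE 0.11). S1pr1, the exit receptor of lymphoid tissue, was at -0.77, Ddit4 at -0.85, and Trp53inp1, also in the p53 list, at -2.08. Klf2, Il7r and Btg1 were not called (-0.45, -0.38 and -1.33).

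A minority of the trafficking receptors and a larger share of the inhibitory receptors were called, both above the share of all genes tested. Of 17 trafficking receptors, 5 were negative and 1 positive (median -0.14). Gpr183, an oxysterol receptor, went from 14.5, 14 and 15.4 to 1.09, 1.12 and 0.996 in KO and from 5.11, 5.24 and 4.74 to 1.87, 1.16 and 1.9 in WT, and fell 13.7-fold and 3.06-fold (contrast -1.72, SE 0.15). Cxcr6, a tissue homing receptor, was at -1.39. Of 8 inhibitory receptors, 4 were negative and 1 positive (median -0.46): Pdcd1, which encodes PD-1 (-0.88), Btla (-0.80), Vsir (-0.70) and Cd160 (-0.57), against Ctla4 (0.53). With 0.1 added 2 of these were negative. Of 19 genes of the receptor complex and its proximal signals, 1 was negative, Zap70 (-0.66), and 2 were positive, the adhesion molecule Cd2 (1.00) and the costimulatory receptor Cd28 (0.55). Leaving out any of 8 single libraries ended the call of Zap70 and any of 4 that of Cd28, which was not called with median scaling either. Of 20 cytokine receptor and JAK-STAT genes, 3 were negative and 2 positive (median -0.31), with Stat5a at -0.75 and Stat3 at -0.68.

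Ribosome biogenesis, mitochondrially encoded and glycolysis genes held few calls, while chaperones and hypoxia-inducible genes were called in a larger share than all genes tested. Ribosome biogenesis gave 0 calls among 25 genes by limma, with 3 at an unadjusted p under 0.05 (median 0.17), and the 13 mitochondrially encoded genes gave 0, with 1 at that threshold (median 0.03). Glycolysis gave 1 positive call among 17, the lactate carrier Slc16a1 at 0.65, which was not called with median scaling. The median difference between KO and WT over the list was -0.63 without inhibitor and -0.54 with it. Of 16 chaperone genes, 2 were negative, Hspa1a and Hspa1b, which are near copies, and 3 were positive, Hspa8, Hsp90aa1 and Hsph1. Leaving out any of 8 single libraries ended the call of Hsp90aa1 and any of 6 that of Hspa1a, and neither Hspa1a nor Hspa1b was called with 0.1 added. Of 10 hypoxia-inducible genes outside glycolysis, 3 were negative and 1 positive (median -0.12).

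The hypoxia list held one of the largest contrasts. Adm, which encodes the vasodilator adrenomedullin, went from 26.6, 26.1 and 30.8 to 3.29, 0.887 and 0.896 in KO and was 7.58, 4.54 and 7.89 without and 11.5, 7.26 and 7.05 with inhibitor in WT. KO moved from above to below WT (contrast -3.86, SE 0.40, adjusted p = 3.24e-05). Egln3, an oxygen-sensing hydroxylase, was at 0.79 and was not called with 0.1 added, and Hilpda at -0.76, a call lost under 12 of 22 alternatives. Some genes outside the lists had large contrasts too. Ccdc184, whose function is not described here, went from 27.5, 46.1 and 33.6 to 1.28, 0.965 and 0.477 in KO and from 2.11, 1.14 and 0.604 to 0.083, 0.0193 and 0.0981 in WT (contrast -3.21). It was not called with 0.1 added (-2.27, adjusted p = 0.144). Rgs2, a regulator of G proteins, had room in WT and went from 33.8, 33.2 and 37.7 to 8.7, 7.19 and 8.43 in KO, with WT between 5.09 and 6.87 (contrast -2.09, SE 0.20). Calhm6, an ion channel subunit induced in immune cells, went from 4.81, 4.46 and 4.71 to 30.9, 32.7 and 35.8 in KO and from 8.09, 8.23 and 7.78 to 17.8, 15.5 and 17 in WT (contrast 1.61, SE 0.12).

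**Figure D5:**
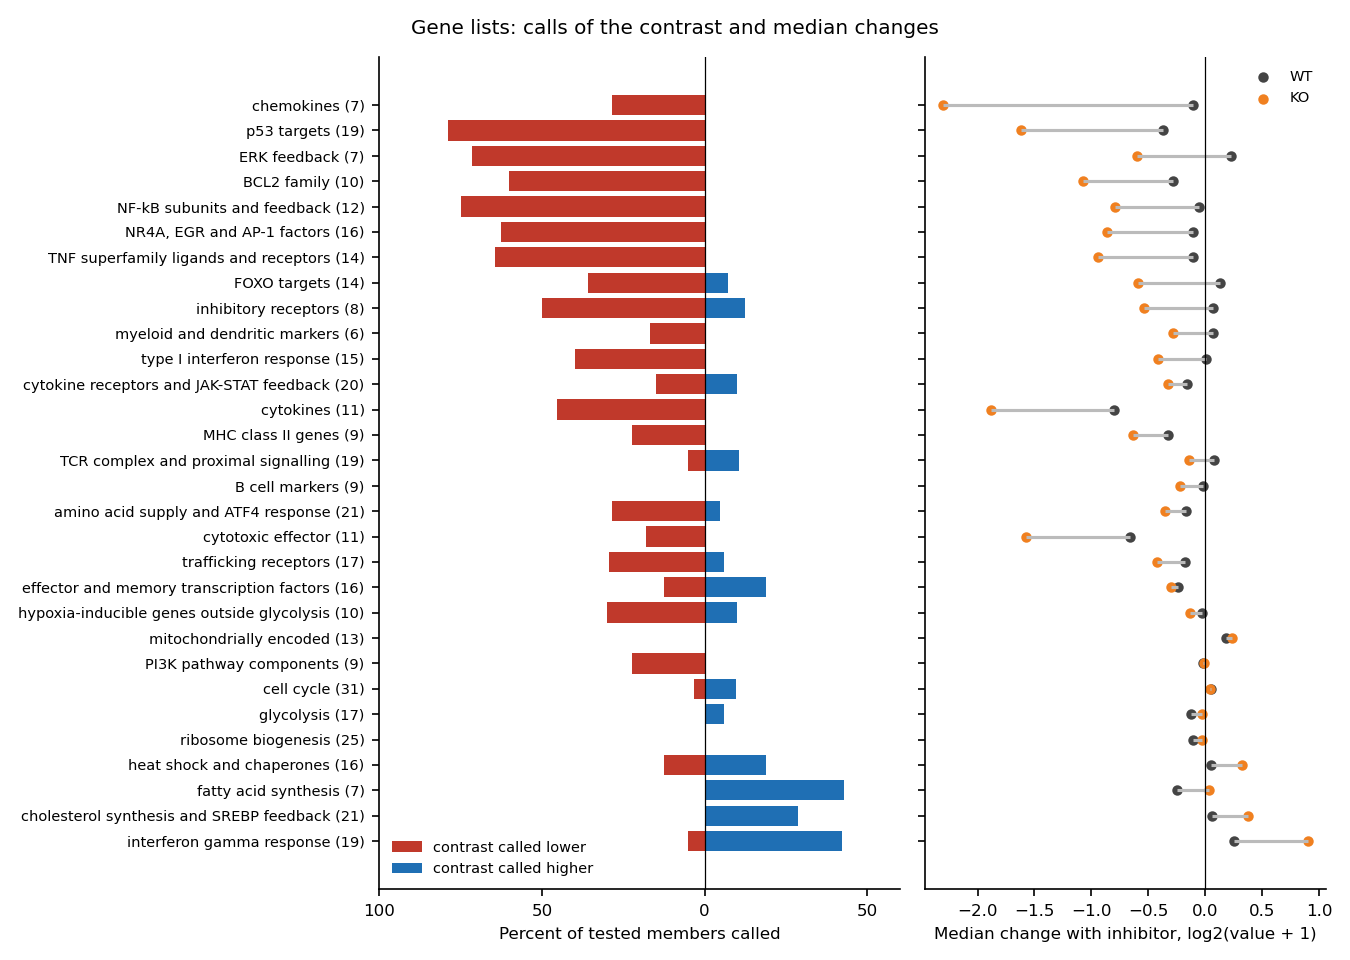
Left, percent of the tested members of each list (number in brackets) whose contrast was called negative (red) or positive (blue). Right, median change with inhibitor of the same members in WT (dark) and in the libraries labelled KO (orange), in log2(value + 1); 15 of 19 p53 targets were called negative, and 8 of 19 genes of the interferon gamma response positive.

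Many of the larger rises in KO were not protein-coding. Of the 260, 98 were protein-coding (37.7%) and 157 were processed pseudogenes, transcribed ones included. Of the 440 larger falls in KO with room, 384 (87.3%) were protein-coding, and of the 152 without, 130 (85.5%). Among all 10257 genes tested, 5800 were protein-coding. The share of processed pseudogenes among the genes tested was not counted. Processed pseudogenes made up 69.8 to 72.7% of each library's summed value, and reads of a gene and its copies may have been divided among them. With protein-coding genes rescaled alone, 90 larger rises in KO were called. Median scaling gave 169.

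Markers of other cell types moved with some of these results. The 10 MHC class II genes listed summed to between 27.8 and 40.8 in KO without inhibitor and 10.5 and 12.4 with it, against 24.9 to 30.1 and 18.3 to 25.4 in WT. Of the 9 tested, 2 were negative, Cd74 at -1.24 and H2-Ab1 at -0.97, and 0 positive. The call of H2-Ab1 was lost with 5 added before the log and on leaving out any of 6 single libraries. The 13 B cell markers listed summed to between 225 and 1030 in KO without inhibitor, where 1 library held 947 of Igkc, and to between 117 and 155 with it, against 173 to 233 and 149 to 199 in WT. Of the 9 tested none was called by limma, with 1 at an unadjusted p under 0.05.

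The 13 myeloid and dendritic markers found in the table summed to between 109 and 146 in KO without inhibitor and 60.1 and 97 with it, against 38 to 48.9 and 48.6 to 65.4 in WT. Most of the sum was Cst3, a protease inhibitor that other cells express too, which went from 90.2, 140 and 106 to 54.9, 52.8 and 52.3 in KO (contrast -1.29). It was the 1 of 6 tested that was called. The defining myeloid markers Csf1r, Adgre1, Itgam and Itgax stayed at or below 0.0249 in all 12 libraries. Other members were higher in some KO libraries. Cd14 was 0.14 to 0.74 in WT and 2.03 to 5.64 in KO without inhibitor, a difference that was called (limma adjusted p = 0.00949), and 0 to 0.431 in WT and 0.57 to 4.39 in KO with it. S100a8 reached 0.0383 in WT and 9 in KO without inhibitor and 0.19 and 4.08 with it, and S100a9 reached 2.3 in KO without inhibitor against at most 0.0138 in WT. Lyz2 ranged from 0.0892 to 39.3, highest in a KO library with inhibitor. NK cell markers summed to between 2.34 and 2.94 in KO without inhibitor and 1.1 and 3.38 with it. In WT they summed to 0.264 to 0.636 without and 0.147 to 1.19 with it. Without inhibitor Fcer1g and Tyrobp were called higher in KO (differences 0.76 and 0.63, limma adjusted p = 0.0165 and 0.0431), and with it they were not. CD4 T cell markers summed to between 0.824 and 1.53, and erythroid markers to between 0 and 7.9. The contrast was called by limma for none of the tested members of these 3 lists, and none had an unadjusted p under 0.05 for it. The part of these cells in the contrasts was not tested, and in bulk samples fewer cells of a type and less RNA per cell cannot be told apart.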

How the data were processed

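RNA was measured by stranded polyA RNA-seq, per the labels. The authors deposited 1 table of log2 values per gene and library. The deposited table's name gives Partek normalization, without the method, log base or offset, and the values were read as log2(value + 1). That reading gives back-transformed values with a floor at 0. The submitters' processing notes name both GRCm38 and GRCm39 with no role, and no coordinates of the deposited table were used. Aligner settings, counting and its use of strand are not given in the sources used here, so no count test was run.

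Groups followed titles and treatment fields; the treatment protocol gives gp33 for every sample. Genes with a value of at least 1 in 3 or more of 18 libraries were fitted in R 4.3.3 by limma 3.58.1, which used statmod 1.5.0. The model held 6 group means (12 residual degrees of freedom) with a trended, robust moderated variance. Tests were two-sided, and p-values were adjusted by Benjamini-Hochberg over 10257 genes, with calls at 0.05. The procedure was tested on simulated data. Folds are ratios of group means of back-transformed values. Contrasts on the log2(value + 1) scale understate changes of low genes.

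Named genes were the 14 most negative and 14 most positive called contrasts with a group mean level of at least 2, the 6 largest with room in each genotype, up to 3 genes per list by p, and Pik3ip1. Members and the 33 gene lists were chosen with earlier results of these data known, and list members named beyond this rule were chosen after their values were seen. Libraries with the same number were not taken as pairs. Alternatives were other pseudocounts (0.1 and 5), filters, scalings, moderation, a replicate block, and leaving out each library. Promoter sequences are from RefSeq GRCm38.p6. A few genes are not reported here, although counts of list members include them.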

Additional observations from a re-analysis of the deposited data

Results flagged for a closer look

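The change with inhibitor differed between the genotypes by the test of the difference itself (limma, adjusted over all genes tested) for 999 genes, of which the rule named 91, and 90 are given here. Their contrasts, KO change minus WT change on the log2(value + 1) scale, are grouped by what each genotype did.

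The inhibitor lowered the gene in KO and raised it in WT, with a negative contrast, for Cd70 -2.37, Gadd45b -1.93, Txnip -0.92, Nr4a2 -1.84, Nr4a1 -1.80 and Bcl2a1b -1.17. It raised the gene in WT alone by the test, with a negative contrast, for Ccl5 -1.10. Both genotypes fell, with a negative contrast, for Ccdc184 -3.21, Il3 -2.92, Eif4ebp1 -0.57, Serpinb6b -0.81, Fosl1 -1.37, Traf1 -1.44 and Sesn2 -1.35. The same held for Plk2 -2.02, Pmaip1 -1.58, Bcl2a1d -1.23, Stat5a -0.75, Chac1 -1.21, Gpr183 -1.72 and Cxcr6 -1.39. KO fell and WT was not called, with a negative contrast, for Csf2 -4.62, Adm -3.86, Il22 -3.07, Ccl22 -2.57, Gzmc -2.54, Marcks -2.46 and Fos -2.25. The same held for Perp -2.24, Tnfsf4 -2.20, Tnfsf9 -2.20, Il2 -2.18, Rgs2 -2.09, Nfkbia -2.0 and Trp53inp1 -2.08. So it was for Ccr7 -1.46, Tnfsf11 -1.89, Id2 -1.37, Dusp1 -0.99, Dusp5 -1.01, Dusp4 -0.58 and Tnfaip3 -1.61. The group also held Rel -1.04, Stat3 -0.68, Hilpda -0.76, Ddit3 -1.47, Isg15 -1.67, Irf7 -1.73 and Usp18 -1.02. It included Btla -0.80, Vsir -0.70, Pdcd1 -0.88, Hspa1b -0.94, Hspa1a -0.80, Cd74 -1.24 and H2-Ab1 -0.97. Further members were Cst3 -1.29. Neither change was called, with a negative contrast, for Zap70 -0.66.

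Both genotypes rose, with a positive contrast, for Calhm6 1.61 and Gbp2 1.31. KO rose and WT fell, with a positive contrast, for Casp6 1.30, Scd2 0.97 and Cd2 1.00. Both genotypes fell, with a positive contrast, for Batf3 1.85, Ly6a 1.81 and Il12rb2 0.42. WT fell and KO was not called, with a positive contrast, for Hpdl 1.12, Cetn4 1.05, Tbx21 0.78, Egln3 0.79, Insig1 0.85, Scd1 0.46 and Fasn 0.47. KO rose and WT was not called, with a positive contrast, for Pik3ip1 0.50, Iigp1 1.71, Ube2c 1.47, Tuba4a 1.46, Ifi47 1.44, Ccnb1 1.43 and Irgm1 1.43. The same held for Aurka 1.42, H3c14 1.33, Tgtp1 1.31, Slc16a1 0.65, Msmo1 0.73, Cyp51 0.64 and Plk1 1.23. So it was for Cd28 0.55 and Hsp90aa1 0.45. Neither change was called, with a positive contrast, for Mt1 1.27.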

How the results depend on the processing

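All 91 named genes with a called contrast kept their direction under every alternative in which they were tested. With a minimum value of 5, only 68 of them were tested. With 0.1 added before the log, 24 were no longer called. With 5 added 2 lost their call, without a filter 5, with median scaling 7, in the 12 stimulated libraries alone 3, and leaving out single libraries between 3 and 16. Among the lists, those 12 libraries moved negative calls from 2 to 4 for chemokines and 5 to 7 for ERK feedback. They raised them from 2 to 5 for MHC class II and 2 to 6 for effector and memory factors. They moved them from 9 to 7 for the TNF superfamily and 10 to 9 for NR4A, EGR and AP-1 factors. For hypoxia-inducible genes they went from 3 to 2 and for chaperones from 2 to 1. Positive cholesterol calls went from 6 to 10. A minimum value of 5 gave 660 called contrasts, 253 larger falls in KO with room, 48 without and 1736 genes called for the inhibitor in KO. Without a filter there were 538 falls without room and 4389 genes called for the inhibitor in KO. Falls without room numbered 48 with 0.1 added, 247 with 5 added and 385 with a margin of 1, which left 207 with room. Median scaling gave 680 falls with room and 169 larger rises in KO, and protein-coding genes alone 729 and 90. Leaving out each library in turn gave 569 to 1477 called contrasts, 259 to 634 falls with room, 117 to 152 without and 125 to 485 larger rises in KO. The inhibitor in WT then gave 433 to 995 calls and in KO 2029 to 4053.

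Among the named genes, those that changed sign were never called. Signs of other genes were not compared between settings. Fcer1g, at 0.01 in the reported fit, was at -0.11 with median scaling, -0.04 among protein-coding genes and -0.25 to 0.17 when single libraries were left out. Over the same omissions Hba-a1 was at -0.01 to 0.83, Tyrobp at -0.46 to 0.02 and Ctsl at -0.15 to 0.05. The cause of these shifts was not tested. With the replicate number as a block 850 contrasts were called, 832 of them shared, and with the library letter as a block 790, 739 of them shared. Libraries with the same letter did not all correlate best with each other: their deviations correlated at 0.19, 0.03 and 0.08 in KO and 0.22, 0.02 and -0.01 in WT. Depth is unknown, which limits what can be said of genes near 0.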

Other observations

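The most positive contrast of all belonged to a gene listed without a symbol, ENSMUSG00002075890, which was chosen after its values were seen. It was 0.464 in 1 library of KO without inhibitor and near 0 in the other 2, and 30.3, 24.9 and 25.4 in KO with inhibitor. In WT it was 16, 16.6 and 23.8 without and 13.1, 2.88 and 16.2 with inhibitor. The contrast was 5.60 (limma adjusted p = 1.95e-05).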
